A study of Mus musculus with 2 samples.

Results

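This report describes the integrins, other adhesion receptors, selectin ligand enzymes and integrin-linking proteins of memory T helper 2 (Th2) cells, by comparing cells that made interleukin-5 (IL-5+) with cells that did not (IL-5-). Members were found by gene symbol. They were all probe sets whose only annotated gene symbol starts with Itga or Itgb, or is 1 of 16 named genes, from the receptor gene Icam1 to the talin gene Tln1. The rule found 97 of 34945 probe sets with a single gene symbol, among 45037 on the array. These represent 45 of 18193 genes, namely 16 integrin alpha subunits, 9 beta subunits, 4 genes with an integrin-like symbol that encode no subunit, 6 other adhesion receptors, 6 enzymes of selectin ligand synthesis and 4 genes of integrin activation.

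Both samples came from 1 design. CD4 T cells of BALB/c mice with the transgenic DO11.10 T cell receptor, which recognises an ovalbumin (OVA) peptide, were isolated from spleen at over 98% purity and stimulated with that peptide in Th2 culture for 6 days, with 25 U/ml IL-2 and 100 U/ml IL-4. They were then moved into BALB/c nu/nu recipients, which lack a thymus and have few T cells of their own. Memory cells were taken from the recipients' spleens 30 days later, and a flow sort divided them by whether they made IL-5. Each of these RNA samples went onto a single Affymetrix mouse array. The sources used here do not give ages, the number of recipients, pooling, or the stimulation and staining before the sort.

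Integrins are pairs of an alpha and a beta chain that anchor a cell to its neighbours or to the matrix. In resting T cells they are held inactive, and the small GTPase Rap1 with talin and kindlin-3 at the beta chain's tail switches them to high affinity. Rolling on vessel walls, which precedes integrin arrest, rests on selectins that bind sugar-modified proteins such as PSGL-1, and the sugars are built stepwise by galactosyl-, sialyl- and fucosyltransferases.

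With 1 array per group, no difference has a replicate check and no p-value is given. Each value is the authors' signal intensity, in array units, and each ratio divides the IL-5+ signal by the IL-5- signal and is given as a log2 value. A gene is represented by its probe set of the highest mean log2 signal. A floor of 36.3, the 40th percentile over both arrays, replaced dimmer signals, so a gene that passed it in only 1 sample has a bound, written "at least". The only measurable error was the SD of the ratio between probe sets of the same gene that lie in the same range of mean signal. It was 0.55 at mean signals under 112.8, 0.37 from there to 500, 0.21 up to 2000 and 0.13 above. This SD leaves out differences between the bright and dim probe sets of a gene, and variation between cell preparations.

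The sort marker Il5 had signals of 37085 in IL-5+ and 67.4 in IL-5- cells; further pairs of signals are given in this order. All 6 measured T cell markers were above the floor on both arrays and summed to 33867 and 41754, with Cd4 at -0.05, Cd3e at -0.34, Cd3d at -0.57 and Cd3g at -0.71 on the log2 scale. Markers of B cells summed to 203.7 and 1011, most of the difference being Ighm (64.4 and 813), and the B cell receptor genes Cd79a and Cd79b were under the floor on both arrays. The list for monocytes, macrophages and dendritic cells, without Itgam and Itgax, had 10 of 12 measured genes above the floor on at least 1 array and summed to 828 and 1062, with Cd14 and Flt3 under the floor on both arrays. Platelet markers, without Itga2b and Itgb3, had 2 of 4 above the floor, and Pf4 and Ppbp were under it on both arrays. In such sorted samples, fewer cells of a type and less RNA per cell cannot be told apart.

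Adhesion receptors, integrins and their partners did not shift one way. Of the 45 genes, 39 were above the floor on at least 1 array and 28 on both. St3gal6, a sialyltransferase, was the 1 member at least 2-fold higher in IL-5+ cells (2.56% of 39, against 2.85% of all 13133 named genes above the floor). Icam1, Itga6, Itgae, Itgb8 and Itgb2l were lower by 2-fold or more (12.8% of 39, against 4.01% of those genes). Itgb8 and Itgb2l are bounds from dim signals. Dividing each array by its median, quantile scaling and loess each gave 2 higher and 4 lower, as Gcnt1 crossed 2-fold upward and Itgb2l came back under it. With these scalings 3.08% to 3.31% of all named genes were higher and 3.37% to 3.57% lower. Counted by probe set, 4 of the 67 above the floor were 2-fold or more higher and 5 lower, beside 2.95% and 3.89% of named probe sets. The median ratio of the 39 genes was -0.051, close to -0.048 for all named genes. Among the 19 members whose brighter signal was 500 or more, 1 (St3gal6) lay 2-fold higher and 2 (Icam1 and Itga6) lay 2-fold lower or more, where 2.22% and 2.46% of the 6129 named genes of that brightness were. A ratio beyond 2 probe set SDs was found for 7 of the 28 members measured on both arrays upward and 4 downward, where 8.04% and 9.86% of named genes passed each way. Bright genes pass this rule more easily: among the 19 bright members 6 passed upward and 3 downward, and the shares of all bright genes were 11.8% and 12.6%.

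**Figure D1:**
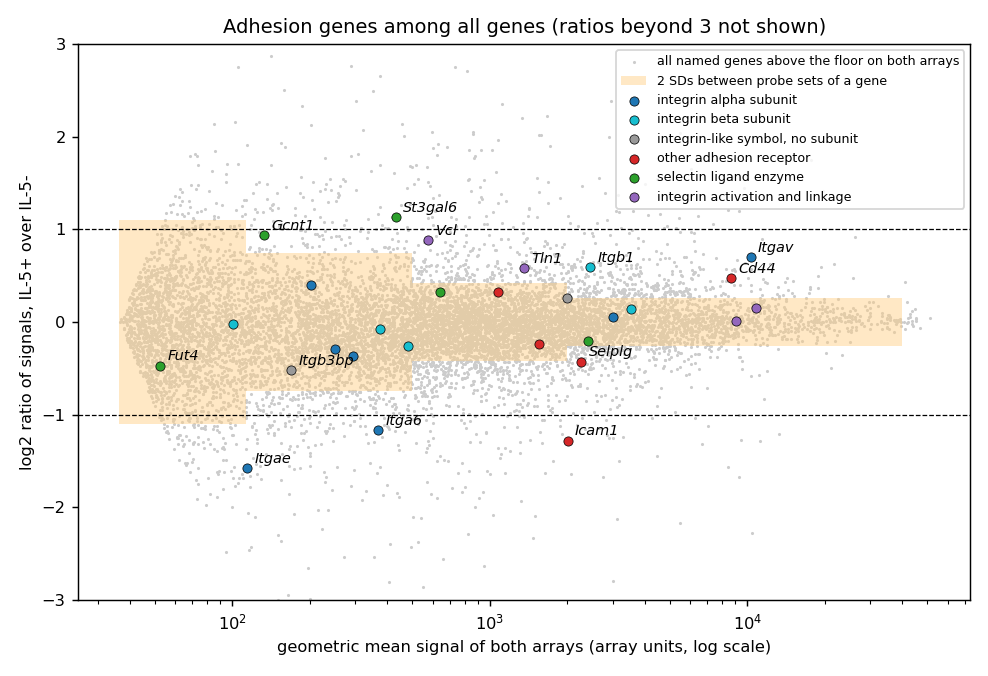
Log2 ratio, IL-5+ over IL-5- (vertical), against the geometric mean signal of both arrays (horizontal, log scale). Grey points are all named genes above the floor on both arrays, and coloured points the 28 members. The shaded band is 2 SDs between probe sets of a gene in the same signal range, and dashed lines mark 2-fold. Icam1 at -1.28 lies far under the band at its brightness, and Itgav, Cd44, Itgb1, Tln1 and Vcl lie above it at less than 2-fold.

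**Figure D2:**
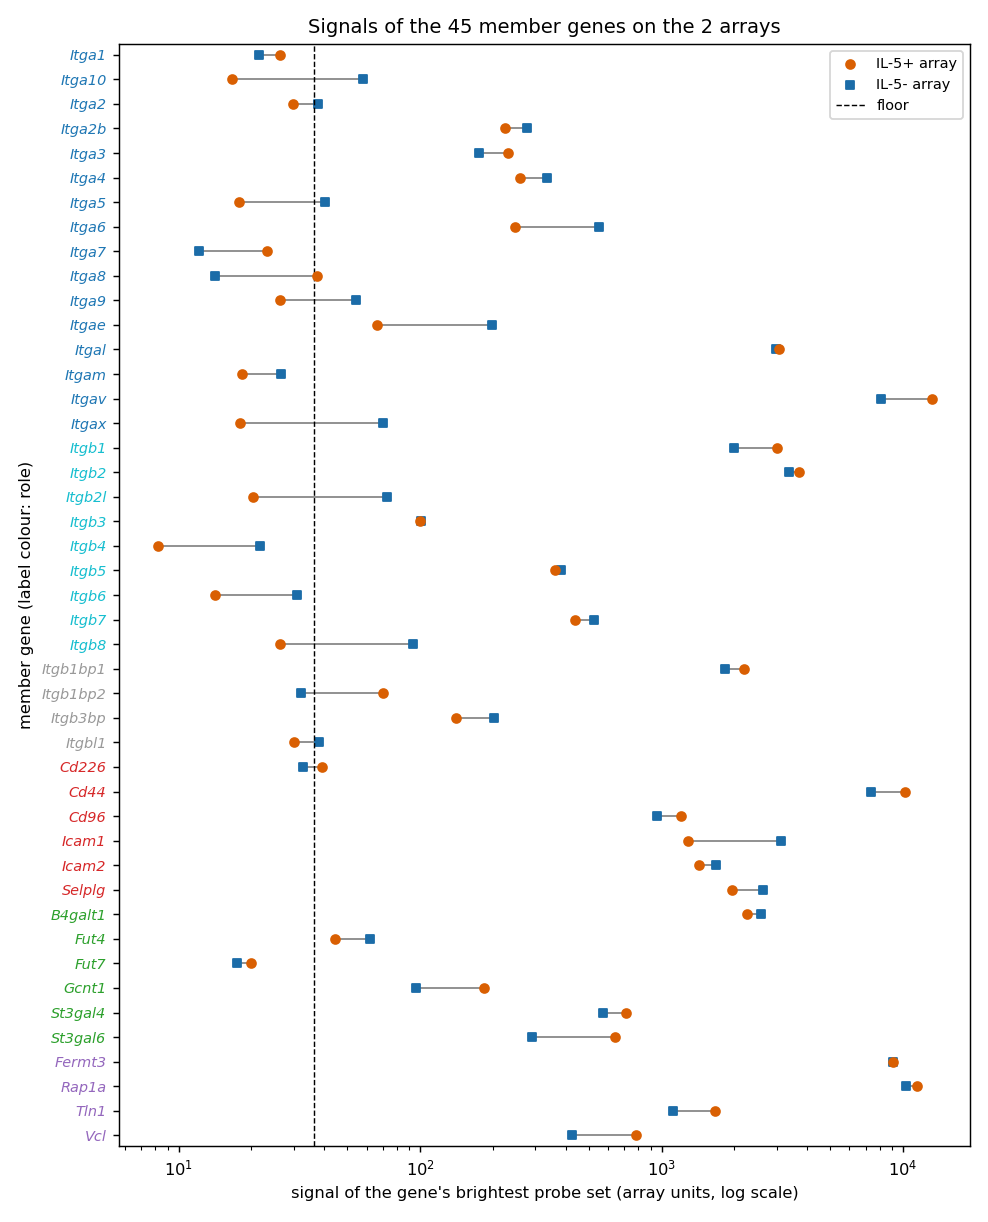
Signals of each member gene's brightest probe set in IL-5+ (circles) and IL-5- cells (squares), on a log axis in array units, with the floor of 36.3 as a dashed line. The 6 genes with both signals left of the line are Itga1, Itga7, Itgam, Itgb4, Itgb6 and Fut7.

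Among the adhesion receptors, Icam1 stood out. It encodes the immunoglobulin-family ligand of LFA-1 (the integrin of Itgal and Itgb2) and is induced in many cells by NF-kappaB and interferon signals. Its signal was 1288 in IL-5+ and 3135 in IL-5- cells, 2.43-fold lower in IL-5+ cells (log2 ratio -1.28), and 2.05% of the named genes had a ratio as low. The probe set SD at this signal is 0.13, although Icam1 has only 1 probe set here and so no second measurement. The ratio stayed between -1.28 and -1.20 under all 9 alternatives for scaling, floor and probe set. The summed B cell and myeloid marker signals were also lower in IL-5+ cells, and so was the summed T cell signal (33867 and 41754). Sums for neutrophils, for platelets, and for eosinophils, basophils and mast cells were lower as well. Sums for CD8 T cells, NK cells, erythroid cells, and stromal and endothelial cells were higher, the last by little (207 and 204). Of the myeloid markers above the floor, Cd68 (0.53) and Zbtb46 (0.92) were higher in IL-5+ cells. The others were lower, from -1.61 for H2-Aa to -0.07 for Siglech, some of them bounds. Of the B cell markers, Ighm had -3.66 and Ms4a1 -0.03, Pax5 was lower (-0.95, a bound) and Cr2 higher (0.33, a bound). The part of other cell types in the Icam1 result was not tested.

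The upstream sequence of Icam1 is shown because it was the bright member with the largest difference, and that of St3gal6, with its 2 annotated starts, because it was the member on the opposite side. Each line gives the 250 bases before an annotated start, 5′ to 3′ on the gene's strand, from RefSeq's promoter table of GRCm38.p6, which held 34 of the 45 genes. Capitals mark letters that match a motif searched on both strands.

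Icam1, chr9:21015690-21015939, plus strand: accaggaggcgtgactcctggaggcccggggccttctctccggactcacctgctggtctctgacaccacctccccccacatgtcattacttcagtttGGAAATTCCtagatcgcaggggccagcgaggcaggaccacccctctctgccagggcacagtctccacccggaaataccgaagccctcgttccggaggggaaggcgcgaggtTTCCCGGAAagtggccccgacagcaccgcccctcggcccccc
St3gal6, chr16:58523427-58523676, minus strand: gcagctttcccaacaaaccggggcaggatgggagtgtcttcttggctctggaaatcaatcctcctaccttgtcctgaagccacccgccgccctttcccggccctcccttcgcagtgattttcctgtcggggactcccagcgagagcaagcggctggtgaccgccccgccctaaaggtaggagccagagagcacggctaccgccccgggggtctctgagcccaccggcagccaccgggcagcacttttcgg
St3gal6, chr16:58524254-58524503, minus strand: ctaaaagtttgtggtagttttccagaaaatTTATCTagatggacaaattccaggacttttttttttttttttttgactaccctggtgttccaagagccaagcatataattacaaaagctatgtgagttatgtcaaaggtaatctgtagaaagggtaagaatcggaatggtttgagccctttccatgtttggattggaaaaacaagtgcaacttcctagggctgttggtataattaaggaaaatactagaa

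The Icam1 stretch holds a kappaB match, GGAAATTCC, 153 to 145 bases before the start, and a STAT match, TTCCCGGAA, 42 to 34 bases before it. The kappaB forms searched, GGAAANTCC and GGGNNTTCC, occur in 5.98% of the 32851 promoters of the table over the same length, and the STAT form TTCNNNGAA in 7.02%. GATA letters (AGATAA or TGATAA, in 16.6% of promoters) matched once in the 2 St3gal6 stretches, 220 to 215 bases before the start that lies farther upstream. AP-1 (TGANTCA, 6.75%), T-box (AGGTGTGA, 1.12%) and KLF letters (GGGTGTGG or GGGCGTGG, 7.72%) matched in none of these 3 stretches. The listed forms do not overlap in them, and a match is letters only, not a bound site.

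The other 5 adhesion receptors differed by less than 2-fold. Icam2, a second LFA-1 ligand, had signals of 1430 and 1686 (-0.24), within 2 probe set SDs. Selplg, which encodes the selectin ligand PSGL-1, was lower in IL-5+ cells at 1957 against 2631 (-0.43), beyond 2 SDs. Cd44, the hyaluronan receptor that marks memory T cells, was higher at 10153 against 7346 (0.47), and its 3 measured probe sets lay close together, from 0.47 to 0.57. Of the paired receptors for the nectin-like ligand CD155, the inhibitory Cd96 had 1198 and 961 (0.32) and the costimulatory Cd226 was dim, at 39.1 and 32.6.

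Of the alpha chains, 2 were at least 2-fold lower. Itgae encodes the alpha E chain (CD103), which pairs with beta 7 to bind E-cadherin on epithelium. Its brightest probe set had 66.1 and 198 (-1.58), but the other probe set gave -0.44, so the size of the difference rests on 1 probe set. With a floor at the 60th percentile (112.8) the ratio was -0.81, and the brighter probe set carries the suffix of those that may match several transcripts. Itga6, which pairs with beta 1 or beta 4 as a laminin receptor, had 246.5 and 553 (-1.17), and its second probe set, at 104 and 185, had the same sign (-0.83). The median of the pair fell just short of 2-fold.

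Itgav was higher at its brightest probe set. It encodes the alpha v chain, which binds RGD-containing matrix proteins and latent TGF-beta with several beta chains. Signals were 13147 and 8101 (0.70) there and 981 and 414 (1.25) at a second probe set. Another gave 0.39 and the dimmest of the 4 measured gave -0.95 (40.4 and 77.8), so the probe sets did not have 1 sign. Itga4, the alpha chain of VLA-4 and of the gut-homing alpha 4 beta 7, had 258.5 and 334 (-0.37), while its second measured probe set gave 0.03. The LFA-1 alpha chain Itgal had 3077 and 2965 (0.05) at its brightest probe set and 575 and 360 (0.67) at the other. Itga3, a laminin receptor chain, had 231 and 176 (0.40), and Itga2b, the platelet chain CD41, had 226 and 276 (-0.29), both within 2 SDs.

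The remaining 9 alpha chains had no ratio or only a bound. Itgax, the CD11c chain of dendritic cells, passed the floor in IL-5- cells alone, at 70.1 against 18.0, as were Itga10, Itga9, Itga5 and Itga2 at 57.9, 54.3, 40.2 and 37.6. Itga8 barely passed on the IL-5+ array (37.4). Itga1, Itga7 and Itgam, the CD11b chain of myeloid cells, were under the floor on both arrays. A dim probe set does not show that the RNA was absent.

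Among beta chains, Itgb1 was the only one measured on both arrays beyond 2 SDs. It encodes the common beta 1 chain of the VLA integrins, and had 3009 and 1995 (0.59) at its brightest probe set. A second bright probe set, at 1830 and 1439, gave 0.35 and a dimmer one -0.14. Itgb2, the leukocyte beta 2 chain, had 3710 and 3373 (0.14), and Itgb7, the partner of alpha 4 and alpha E, had 439.5 and 525 (-0.26). Itgb5 (363 and 384, -0.08) and Itgb3 (99.6 and 101, -0.02), both partners of alpha v, hardly differed at their brightest probe sets. The other probe sets of these genes were under the floor on both arrays. That of Itgb5 carries a suffix of those that may match several transcripts, so its value may not be of Itgb5 alone. Itgb8, which forms the TGF-beta-activating alpha v beta 8, was dim, at 26.2 and 93.2, and so lower by at least 2.57-fold. Itgb2l, a beta 2-like gene, was dim as well, at 20.3 and 73.2 (at least 2.02-fold lower). Its other probe sets, at 15.8 and 12.2 and at 10.8 and 3.9, were under the floor on both arrays. Itgb8 and Itgb2l fell under 2-fold when 50 was added to every signal (-0.91 and -0.81), and neither passed a floor at the 60th percentile. Itgb4 and Itgb6 were under the floor on both arrays.

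Read as pairs at their brightest probe sets, the chains of a heterodimer did not always run together. LFA-1 had ratios of 0.05 for Itgal and 0.14 for Itgb2. VLA-4 joins Itga4 at -0.37 with Itgb1 at 0.59, and alpha 4 beta 7 joins it with Itgb7 at -0.26. For the E-cadherin receptor the alpha chain Itgae had -1.58 and its partner Itgb7 -0.26. For the laminin receptor alpha 6 beta 1 the chains had opposite signs, -1.17 for Itga6 and 0.59 for Itgb1. Other measured probe sets gave 0.67 for Itgal, 0.03 for Itga4, -0.44 for Itgae, -0.83 for Itga6, and 0.35 and -0.14 for Itgb1. How closely the chains of a pair ran thus depends on the probe set. The 4 genes of integrin-like symbol that encode no subunit were Itgb1bp1, the beta 1 tail-binding protein ICAP-1 (0.26), Itgb3bp, a centromere protein (-0.52, and 0.39 at another probe set), Itgb1bp2 (70.3 and 32.1) and Itgbl1 (30.0 and 38.2).

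The 4 genes of integrin activation and cytoskeletal linkage had ratios above 0 as deposited, as did 5839 of the 13133 named genes above the floor. Fermt3 turned to -0.03 with quantile or loess scaling, and none of the 4 reached 2-fold. Vcl encodes vinculin, which reinforces the talin-actin link, and had 786 and 425 (0.88), so it was 1.85-fold higher in IL-5+ cells. Its second probe set was dim, at 40.1 and 19.0. Tln1, encoding talin, had 1662 and 1113 (0.58), and its 3 probe sets were 0.58, 0.50 and 0.18. Both ratios were beyond 2 probe set SDs. Fermt3, encoding kindlin-3, had 9098 and 9066 (0.01), with 4 probe sets from -0.08 to 0.18, and Rap1a had 11460 and 10293 (0.15). The Fermt3 and Rap1a ratios were within 2 SDs.

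Selectin ligand enzymes were led by St3gal6 and Gcnt1. St3gal6 adds the sialic acid that caps selectin-binding sugars and had 638 and 292 (1.13, 2.19-fold higher in IL-5+ cells). All 4 measured probe sets were higher on the IL-5+ array, at 1.25, 1.13, 0.55 and 0.43, with a median of 0.84. Gcnt1, the core 2 branching enzyme that builds the arm on which the ligand sits, had 184 and 95.8 (0.94) and, at its second probe set, 143 and 58.8 (1.28). Both Gcnt1 probe sets are dim, and with 50 added to every signal the ratio was 0.68. St3gal4, a second sialyltransferase, had 713 and 572 (0.32), and the galactosyltransferase gene B4galt1 had 2249 and 2586 (-0.20), both within 2 SDs. Of the fucosyltransferases that complete the sugar, Fut4 was dim and lower in IL-5+ cells, at 44.6 against 61.8 (-0.47), less than the probe set SD of 0.55 at such signals. Fut7, the main fucosyltransferase of T cells for this step, did not reach the floor on either array, so it has no ratio.

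Where several probe sets of a member were measured on both arrays, they did not always have the same sign. Of 13 such members, 8 had probe sets of 1 sign and 5 of both signs. The 5 were Itga4, Itgav, Itgb1, Itgb3bp and Fermt3. A further 21 of the 45 members, Icam1, Selplg and Itgb8 among them, have a single probe set.

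**Figure D3:**
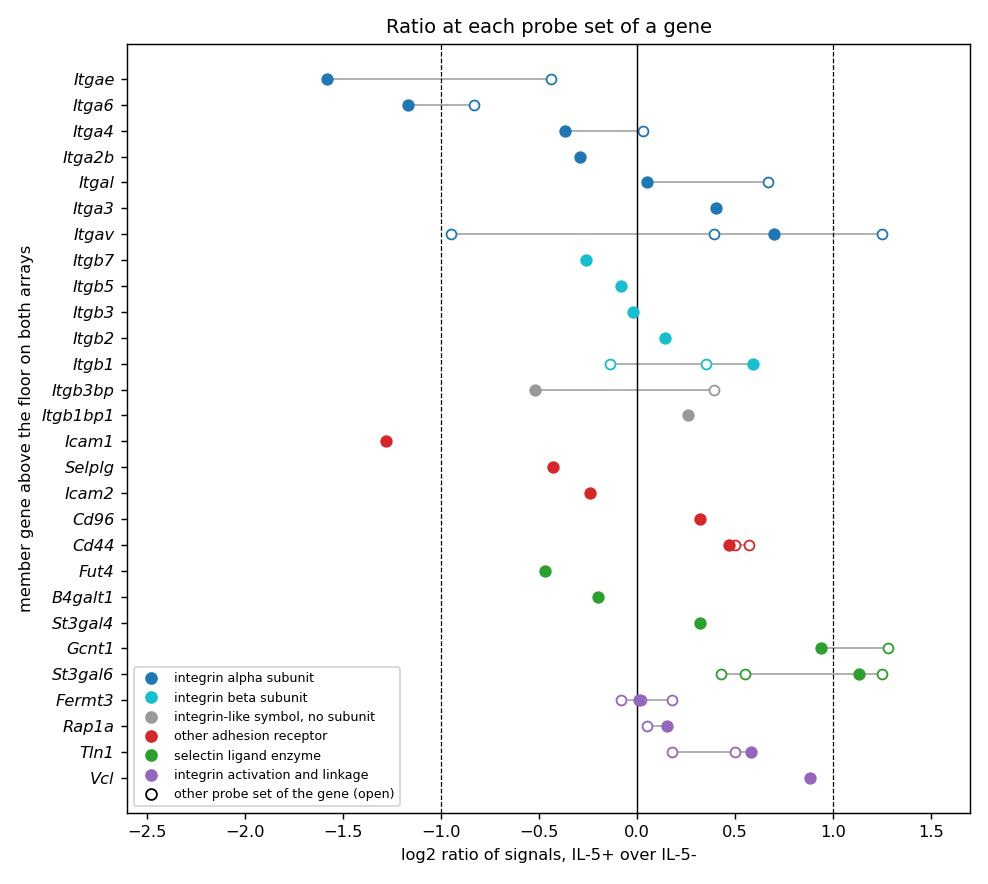
Log2 ratio, IL-5+ over IL-5-, at every probe set above the floor on both arrays for the 28 members measured there. Filled points are the brightest probe set of a gene, open points its others, colour gives the role and dashed lines mark 2-fold. Cd44 probe sets lie within 0.47 to 0.57, whereas those of Itgav run from -0.95 to 1.25.

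Further adhesion genes were described through 3 lists of genes that are not members. Enzymes and carriers of selectin ligands and related glycans had 5 of 32 genes above the floor at least 2-fold higher in IL-5+ cells (15.6%) and 1 lower (3.12%), beside 2.85% and 4.01% of all named genes. Their median was 0.106, against -0.048 over all named genes, but it was -0.016 with no floor or with an added constant. Galnt3, which starts mucin-type O-glycans, had 417 and 83.0 (2.33), and 1.20 as the median with a dim second probe set. Cd24a, a heavily glycosylated P-selectin ligand, had 1380 and 518 (1.41), and Fut8, the core fucosyltransferase, had 955 and 377 (1.34). St3gal3, a sialyltransferase, was lower at 94.5 against 207 (-1.13), and its ratio ran from -1.13 to -0.83 over the alternatives. Its probe set carries a suffix of those that may match several transcripts. The list had 0 lower genes with a floor at the 60th percentile, with an added constant, or with only probe sets of no suffix (2.48%, 1.65% and 4.0% of all named genes). With no floor it had 3 lower (12.7%). The other higher genes, named after their values were seen, were St6gal1 (2974 and 1418, 1.07) and St3gal1 (450 and 222, 1.02), both sialyltransferases. They came under 2-fold in some alternatives, with lowest ratios of 0.90 and 0.88, and the count of higher genes was 4 to 6 over the 9 alternatives at 2-fold.

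The wider list of integrin activation and adhesome genes had none of 29 genes 2-fold higher and 3 lower (10.3%), beside 2.85% and 4.01% of all named genes, with a median of 0.084 against -0.048. The 3 were Fyb, the adaptor ADAP that couples T cell receptor signals to integrins (566 and 1761, -1.64), Rasgrp2, the Rap1 exchange factor CalDAG-GEFI (56.7 and 172, -1.60), and Cyth1, the beta 2 tail-binding cytohesin-1 (1040 and 2363, -1.18). Both Fyb probe sets measured were below -1, whereas another Rasgrp2 probe set gave -0.65. Fermt2, encoding kindlin-2, was dim at 38.7 and 65.1 (-0.75).

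In the list of immunoglobulin-family and tetraspanin adhesion genes and integrin ligands, 2 of 31 genes were lower by 2-fold or more (6.45%, beside 4.01% of all named genes) and none was that much higher. The median was 0.177, but 0.001 when the probe sets of a gene were summarised by their median and 0.051 with only probe sets of no suffix. Crtam, a nectin-like-binding receptor of activated T cells, was lower at 1105 against 2300 (-1.06). The other was Icam5, named after its value was seen, a bound from a dim signal (29.9 and 87.0). Just under 2-fold stood Cd9, a tetraspanin that associates with integrins (5028 and 2533, 0.99), and Alcam, the CD6 ligand (4821 and 2481, 0.96), both over 2-fold after division by the array medians. With that scaling the list had 3 genes higher and 1 lower, beside 3.31% and 3.37% of all named genes. The Crtam ratio ran from -1.06 to -0.98 over the alternatives, so it did not always reach 2-fold. Cadm1 had 104 and 60.5 (0.79).

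**Figure D4:**
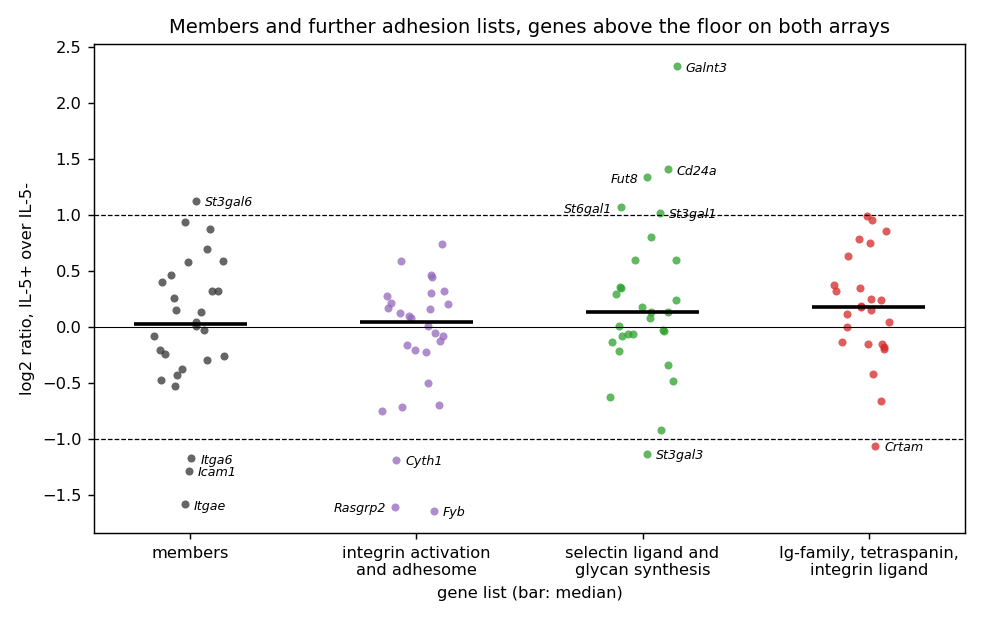
Log2 ratio, IL-5+ over IL-5-, of each gene above the floor on both arrays in the member list and the 3 further lists. Points are genes, spread sideways only for legibility, bars the medians of the points shown, and dashed lines 2-fold. The glycan list reaches 2.33 at Galnt3, and the adhesome list reaches -1.64 at Fyb.

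**Figure D5:**
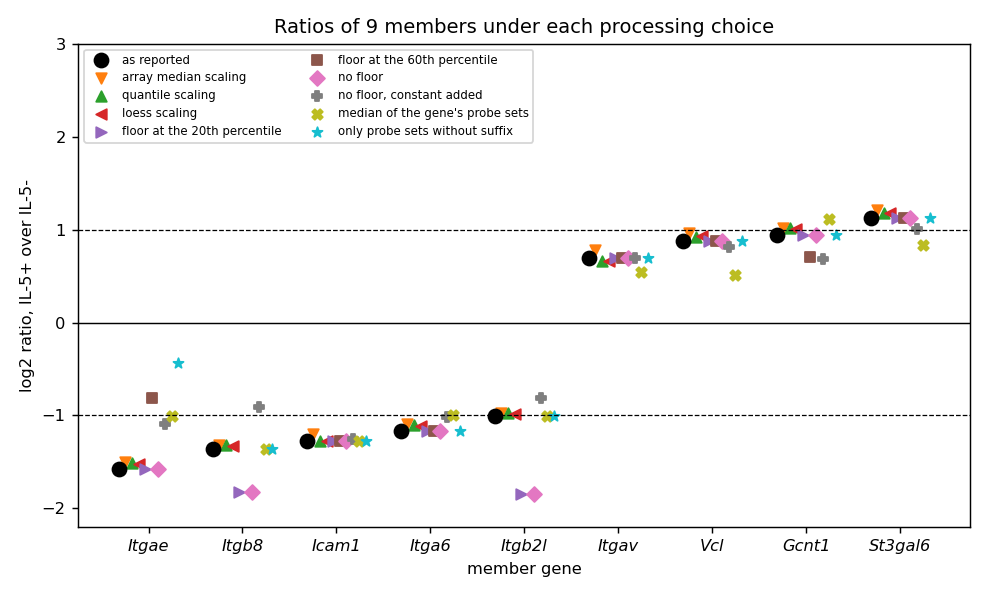
Log2 ratio, IL-5+ over IL-5-, of 9 members as reported (large black circles) and under the 9 alternatives for scaling, floor and probe sets. Icam1 stays between -1.28 and -1.20, Itgae spreads from -1.58 to -0.44, and no plotted ratio changes sign.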

How the data were processed

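The authors deposited an intensity value for each probe set of each array. Per the submitters' processing notes these come from GCOS, which drives Affymetrix scanners; the sources used here do not give its version, algorithm or scaling. The intensity values are linear, from 0.1 to 51950, with medians of 57.2 (IL-5+) and 60.4 (IL-5-). No detection calls were used. Array signals near background are compressed, and probe sets with the suffixes _s_at, _x_at and _a_at may match several transcripts. Gene names came from the platform annotation of the array (932 probe sets had several symbols and 9160 were not listed); all 45 member identifiers matched RefSeq's gene table of GRCm38.p6.

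Ratios, floor and counts were computed as described above. A gene was counted at a 2-fold difference, beside the share of all named genes past it. The number of arrays limits the precision, and no p-value was computed. Members and lists were chosen with earlier results of these data known, so their shares are descriptions. Named genes are all members and up to 4 genes of each further list with the largest ratio on both arrays and no probe set of opposite sign. Calling was tested on simulated data, with differences beyond 2-fold planted only in genes well above the floor on both arrays. That test does not show how differences in dim genes are recovered. Python 3.11.15, numpy 2.4.6, pandas 2.3.3, statsmodels 0.14.6 and matplotlib 3.10.9 were used.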

Additional observations from a re-analysis of the deposited data

How the results depend on the processing

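The counts of members at least 2-fold apart, 1 higher and 5 lower, depended on the treatment of dim signals and on scaling. Division by the array median, quantile and loess scaling each gave 2 higher and 4 lower (3.08% to 3.31% and 3.37% to 3.57% of all named genes). A floor at the 20th percentile gave 3 higher and 10 lower (7.98% and 9.47% of all named genes), no floor 3 and 11 (11.3% and 12.7%), and a floor at the 60th percentile 1 and 2 (2.01% and 2.48%). An added constant left 1 higher and 3 lower (1.28% and 1.65%). Keeping only members above the floor on both arrays, a choice made after the data were seen, also left 1 higher and 3 lower of 28. Of the 10990 named genes above the floor on both arrays, 274 were higher and 373 lower. A 1.5-fold threshold gave 6 higher and 7 lower (7.88% and 11.9%), and a 3-fold threshold 0 higher and 0 lower (0.693% and 1.09%). The median ratio, -0.051, was 0.096 with a floor at the 60th percentile, where 26 members remained above it. No member at least 2-fold apart changed sign under the 9 alternatives for scaling, floor and probe sets. Of 334 single-gene values under these, 16 newly passed 2-fold and 9 no longer did. No paired analysis was possible because each group has 1 array. Signal over background limits the members that were dim, and no replicate error could be measured.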
